A study of Arabidopsis thaliana with 30 samples.

Results

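The salicylate branch of plant immunity was followed through 10 genes: ICS1, EDS5 and PBS3, which make and export the precursors of salicylic acid, SARD1, CBP60g, EDS1 and PAD4, which control that synthesis, and PR1, PR2 and PR5, which serve as its markers. They were taken by name from 33602 genes in the count table, and all 10 were among the 21472 genes that passed the filter on low counts. The material was the petiole end of the 4th leaf of Arabidopsis thaliana at 21 days, and its reads were counted per gene at 0 h and every 24 h up to 96 h after the leaf was cut off. WT was Col carrying the reporter ORE1::LUC (a luciferase gene behind the ORE1 promoter), and eur1-11 was a mutant induced chemically with EMS in that same reporter line, so all groups carried ORE1::LUC. Leaves of both genotypes were excised, floated on a MES buffer and held in continuous light, and the 0 h samples were excised leaves too, so no group stands for a leaf left on the plant. The plants had grown in soil in long days under brighter light. Later times thus differed from 0 h in light and floating as well as in time since excision, and these cannot be told apart. The mutant was 1 allele, with a premature stop in EAR1, a negative regulator of abscisic acid signalling. There were 3 replicates in each of 10 groups and 30 libraries in all. The titles name the petiole while the tissue field says only excised leaf, and nothing states that replicates were separate plants, so p-values measure only the spread between these samples. The study made the series to relate EAR1 to gene expression while excised leaves regenerate roots. The comparisons below ask how each gene changed with time after excision, and whether that differed in eur1-11.

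Salicylic acid is the hormone that arms plants against pathogens that feed on living cells, and it also builds up as leaves age. In Arabidopsis most of it comes from chorismate by way of isochorismate: ICS1 makes isochorismate in the chloroplast, EDS5 carries it to the cytosol, and PBS3 joins it to glutamate, after which the product breaks down to salicylic acid. SARD1 and CBP60g are related transcription factors that bind the ICS1 promoter, and EDS1 and PAD4 are lipase-like proteins that form a complex and act upstream of the hormone as well as in a loop with it. Salicylic acid is sensed by NPR proteins, which with TGA transcription factors turn on PR1, PR2 (a beta-1,3-glucanase) and PR5 (a thaumatin-like protein).

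The upstream sequence of 3 of these genes is shown because it holds, close together, the letters that the regulators named above are known to bind. Motifs were searched on both strands: GAAATT, the core bound by SARD1 and CBP60g, TTGAC, the W-box core of WRKY factors, and TGACG, the core of TGA sites, of which TTGAC and TGACG overlap where a sequence reads TTGACG. Sequences are from RefSeq (TAIR10.1), written along the gene's own strand in lower case with motif letters in capitals, and positions count back from -1, the base before the annotated start. The lines give ICS1 at chr1:28070045-28070294 (plus strand, -250 to -1), SARD1 at chr1:27749249-27749498 (minus strand, -250 to -1) and PR1 at chr2:6243082-6243161 (minus strand, 80 bases from -620).
ICS1: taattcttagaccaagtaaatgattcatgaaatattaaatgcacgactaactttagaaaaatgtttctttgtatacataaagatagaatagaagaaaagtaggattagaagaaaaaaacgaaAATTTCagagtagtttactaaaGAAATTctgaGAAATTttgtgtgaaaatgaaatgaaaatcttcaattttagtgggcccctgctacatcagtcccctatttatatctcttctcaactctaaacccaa
SARD1: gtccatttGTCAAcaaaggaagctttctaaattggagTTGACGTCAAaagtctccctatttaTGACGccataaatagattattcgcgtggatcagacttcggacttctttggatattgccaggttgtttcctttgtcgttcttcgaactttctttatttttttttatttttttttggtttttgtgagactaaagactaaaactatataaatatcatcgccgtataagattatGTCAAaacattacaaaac
PR1: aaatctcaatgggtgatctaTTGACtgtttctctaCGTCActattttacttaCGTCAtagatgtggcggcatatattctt
The ICS1 window holds 3 copies of the SARD1 and CBP60g core, with first bases at -128, -106 and -96, and 3 or more copies stood in 1.26% of the 27443 promoters of the same length (347). The SARD1 window holds 3 matches of the TGA core, at -212, -209 and -188, and 0.583% of promoters (160) held 3 or more. The matches at -212 and -209 are the same palindrome, TGACGTCA, read on opposite strands, and all promoters were counted in this way. It also holds 4 matches of the W-box core, at -242, -213, -208 and -18, and 3 or more of these stood in 3.38% of promoters. Those at -213 and -208 lie on opposite strands of the palindrome TTGACGTCAA. In PR1 a W-box core at -600 lies near TGA cores at -585 and -568. Within 250 bases the W-box core was found in 5 of the 10 genes against 44.9% of promoters, and the SARD1 and CBP60g core and the TGA core in 1 each against 32.2% and 18.6%. Within 1000 bases the W-box core was found in 10 of the 10 genes, the TGA core in 6 and the SARD1 and CBP60g core in 6, against 88.1%, 54.1% and 75% of promoters. The 3 windows printed were picked for these motifs, so the shares of promoters with as many copies are no test. These matches describe letters in a window and not binding.

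Libraries held 22482318 to 43243161 counts on genes, with 21556 to 24284 genes detected. Genes of the chloroplast genome took 55.8 to 62.9% of counts at 0 h, 36.5 to 46.2% at 24 h and 18.7 to 26.5% at 96 h, so the scaling of the libraries matters for every comparison with 0 h. Levels are CPM, counts put on a common library size by TMM, which assumes that most genes do not change. EAR1 was detected in both genotypes, at 195 to 378 CPM in WT (median 262) and 105 to 324 in eur1-11 (median 226), with a log2 difference of -0.30 ± 0.071 over the 5 times (edgeR, adjusted p = 0.0133). The sum of 5 leaf photosynthesis markers fell from 20818 to 26056 CPM at 0 h to 981 to 1760 at 96 h, the sum of 4 epidermis and guard cell markers from 237 to 264 to 50.2 to 77.1, and the sum of 4 vascular markers in WT from 206 to 248 at 0 h to 137 to 148 at 48 h and 182 to 201 at 96 h. At 48 h 2 of these 4 were called lower and 1 higher in each genotype. Over all genes 31.3% were lower in each genotype, and 37.6% in WT and 34.8% in eur1-11 were higher. The 5 root identity markers summed to at most 0.358 CPM in any library, and none of them passed the filter on low counts. The part of these shifts in the changes given below was not tested, and in whole petioles fewer cells of a type and less RNA per cell cannot be told apart.

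Replicate 3 stood apart from replicates 1 and 2 for most of the 10 genes after excision. In the 8 groups after 0 h it had the highest level in 8 for ICS1, SARD1 and PAD4, in 7 for PBS3, CBP60g and EDS1, in 6 for EDS5, PR1 and PR5 and in 5 for PR2. Its ratio to the mean of the other replicates reached 5.03 for PBS3, 4.22 for ICS1, 3.75 for PR1, 3.41 for PR5 and 3.36 for PR2, while replicates 1 and 2 differed by at most 1.21-fold (EDS1) to 1.88-fold (PR5). PR1 also had the lowest ratio, 0.276, since at 24 h replicate 3 was the lowest of its group in both genotypes. The replicate number was a block in the model, and results that rest on replicate 3 are given with and without it.

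**Figure D1:**
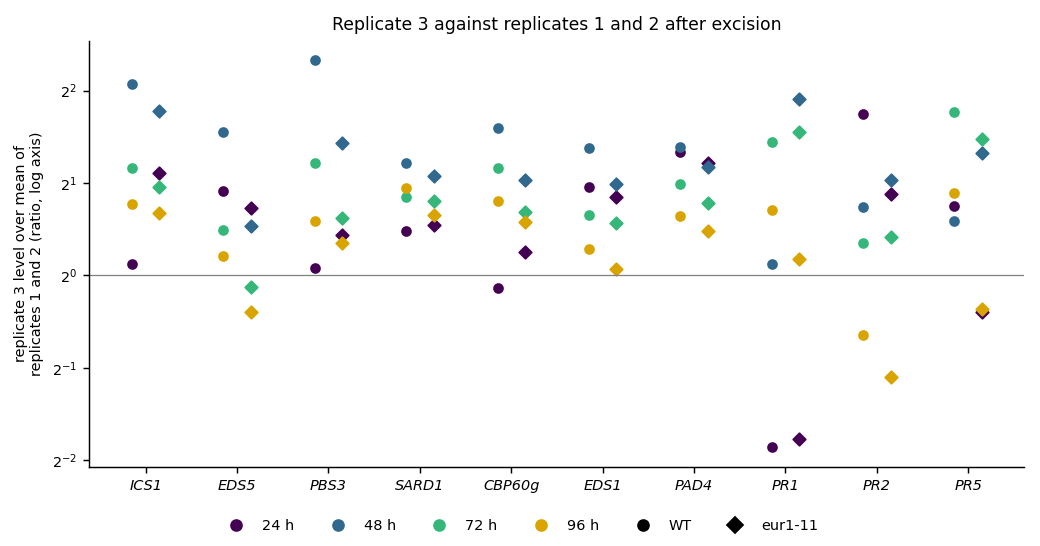
Level of each gene in replicate 3 divided by the mean of replicates 1 and 2 (vertical axis, ratio on a log scale) in the 8 groups after 0 h, 4 of WT and 4 of eur1-11. Most points lie above 1, up to 5.03 for PBS3, and PR1 spans 0.276 to 3.75.

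After excision ICS1, EDS5, PBS3, PR1, PR2 and PR5 were above 0 h in WT at all 4 times, as was the regulator PAD4, while EDS1 was so at 24 and 48 h and SARD1 and CBP60g did not pass. In WT 8 of the 10 genes were higher at 24 h than at 0 h, 8 at 48 h and 7 each at 72 and 96 h, and none was lower. Over all genes tested 35.9, 37.6, 37 and 38.1% were higher at these times and 32.1, 31.3, 30.9 and 30.8% lower, so an increase was common in the data. The median log2 fold change of the 10 was 1.43, 2.12, 1.43 and 1.07, against 0.070, 0.12, 0.13 and 0.16 over all genes. In eur1-11 6, 7, 7 and 6 were higher and 0, 0, 1 and 1 lower, against 34.6, 34.8, 34.3 and 36.4% of genes higher and 31.7, 31.3, 31.5 and 31.6% lower. Their median was 1.1, 1.3, 1.11 and 0.96, against 0.066, 0.095, 0.085 and 0.11 over all genes. Both genotypes had their own 0 h libraries, and all 4 comparisons within a genotype share them. The levels did not overlap with 0 h for any gene called higher, where 35.1, 38, 39.4 and 41.4% of genes in WT and 33.5, 34.5, 36 and 37.3% in eur1-11 lay wholly above their 0 h range at the 4 times. Scaling by total counts instead of TMM put the median gene 1.08 to 1.76 above 0 h on the log2 scale, against 0.066 to 0.16 with TMM, and raised the share of higher genes among those called from between 52.1 and 55.3% to between 84.2 and 90.1%. Under it all 10 genes were higher at all 4 times in both genotypes.

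**Figure D2:**
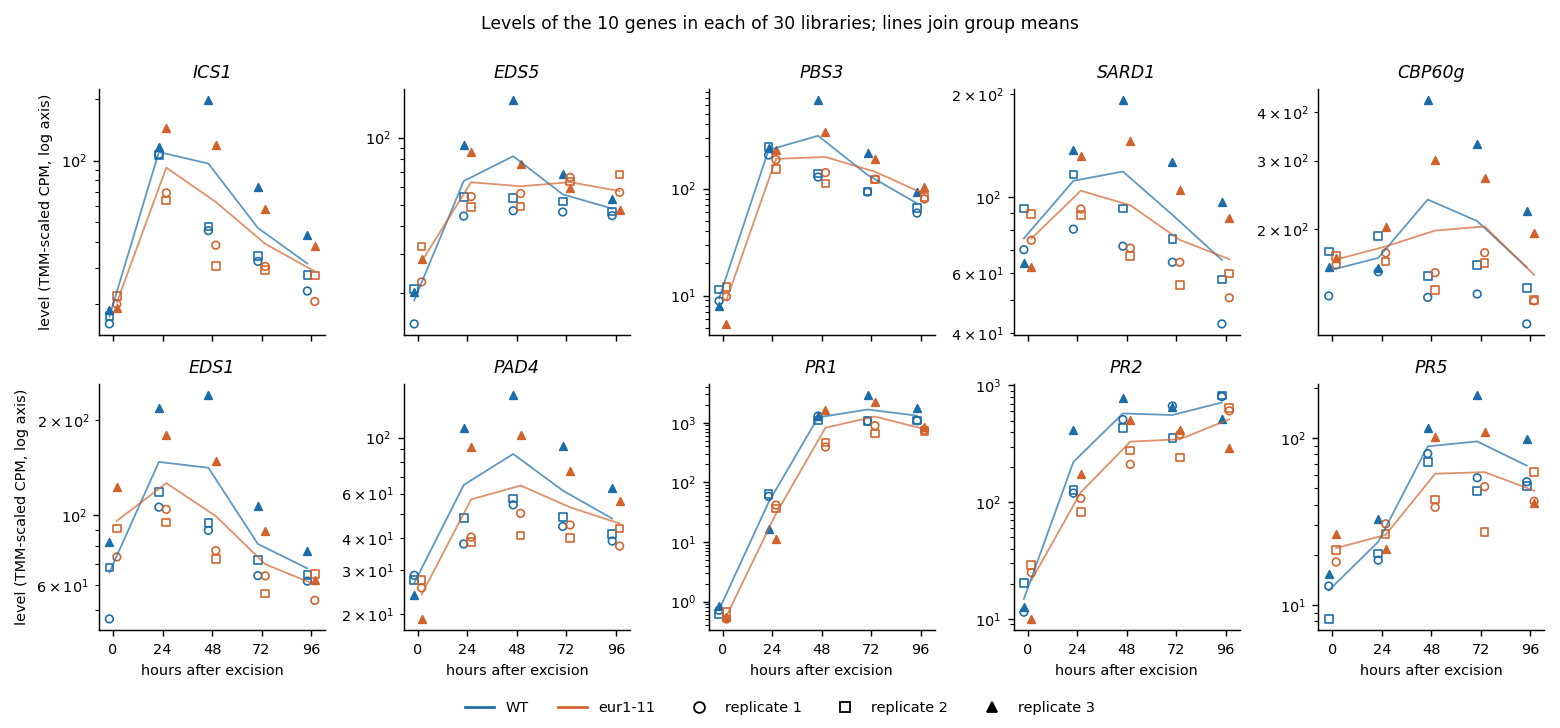
Level of each of the 10 genes (TMM-scaled CPM, log axis) in each of 30 libraries against hours after excision, with lines through the mean of each group of 3. PR1 climbed from below 1 CPM at 0 h to at least 392 CPM from 48 h on, while CBP60g stayed between 114 and 430 CPM throughout.

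ICS1 (AT1G74710, chr1:28070295-28074177, TAIR10.1), the isochorismate synthase of the pathway, peaked early and then declined. In WT it was at 15.98, 17.5 and 18.6 CPM at 0 h and 107, 107 and 116 CPM at 24 h in replicates 1, 2 and 3. It stood at 45.5, 47.8 and 197 CPM at 48 h, 32.2, 34.2 and 74.4 CPM at 72 h and 23.1, 27.7 and 43.5 CPM at 96 h. The 24 h libraries agreed closely and lay far above 0 h, whereas at 48 h replicate 3 was the high one, and every later library was still above the 0 h range. The log2 fold change was 2.67 ± 0.34 at 24 h (6.38-fold, edgeR, adjusted p = 6.02e-07), 2.19 ± 0.34 at 48 h, 1.29 ± 0.33 at 72 h and 0.77 ± 0.33 at 96 h (adjusted p = 0.0422). In eur1-11 the levels were 19.99, 21.9 and 19.0 CPM at 0 h, 69.5, 63.9 and 143 CPM at 24 h and 38.7, 30.6 and 119 CPM at 48 h. They then declined to 30.5, 29.2 and 58.0 CPM at 72 h and 20.6, 27.5 and 38.3 CPM at 96 h, where replicate 1 was back inside the 0 h range. The log2 fold change was 2.02 ± 0.33, 1.36 ± 0.33 and 0.81 ± 0.33 at 24, 48 and 72 h, and at 96 h it was 0.40 ± 0.32 (edgeR, adjusted p = 0.284). Without replicate 3 the 48 h changes of ICS1 were 1.47 in WT and 0.72 in eur1-11. The late calls, WT at 96 h and eur1-11 at 72 h, were lost without replicate 1 (0.91 and 0.93, edgeR, adjusted p = 0.127 and 0.125) and without replicate 2 (0.84 and 1.02, adjusted p = 0.117 and 0.0637).

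PBS3 (AT5G13320, chr5:4267456-4271064), the enzyme that joins isochorismate to glutamate, rose most among the synthesis genes. In WT it went from 8.91, 11.4 and 7.93 CPM at 0 h to 206, 245 and 239 CPM at 24 h. At 48 h it was at 128, 138 and 670 CPM, at 72 h at 92.8, 93.9 and 216 CPM and at 96 h at 59.1, 65.5 and 93.6 CPM. Replicates 1 and 2 were highest at 24 h and replicate 3 at 48 h, and no later library came near the 0 h range. The log2 fold change was 4.57 ± 0.47 (23.8-fold, edgeR, adjusted p = 2.9e-08), 4.77 ± 0.48, 3.68 ± 0.46 and 2.86 ± 0.44 at the 4 times. Without replicate 3 the 48 h value for PBS3 was 3.72. In eur1-11 it was at 9.78, 12.02 and 5.44 CPM at 0 h, 186, 153 and 230 CPM at 24 h, 141, 111 and 340 CPM at 48 h, 123, 121 and 188 CPM at 72 h and 80.0, 83.2 and 104 CPM at 96 h. All later libraries of the mutant were again far above 0 h. Its changes were 4.27 ± 0.47, 4.22 ± 0.47, 3.85 ± 0.46 and 3.19 ± 0.45.

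EDS5 (AT4G39030, chr4:18185437-18189224), the exporter of isochorismate, rose less and kept most of its level in replicates 1 and 2. Replicate 3 of EDS5 was down to 35.9% of its highest level at 96 h in WT and to 55.3% in eur1-11. In WT it was at 14.6, 20.9 and 20.4 CPM at 0 h, 44.5, 54.1 and 93.1 CPM at 24 h, 47.0, 53.5 and 147 CPM at 48 h, 46.4, 51.7 and 69.0 CPM at 72 h and 44.7, 46.6 and 52.9 CPM at 96 h. Replicates 1 and 2 hardly moved after 24 h, and no later library overlapped with 0 h. On the log2 scale it changed by 1.73 ± 0.28, 2.06 ± 0.28, 1.57 ± 0.28 and 1.38 ± 0.28 (edgeR, adjusted p between 1.56e-06 and 0.000161). In eur1-11 it was at 22.5, 32.5 and 28.4 CPM at 0 h, above the WT range, and at 54.4, 49.0 and 86.0 CPM at 24 h. It then stood at 56.2, 49.1 and 76.3 CPM at 48 h, 66.4, 63.5 and 59.6 CPM at 72 h and 56.9, 68.4 and 47.5 CPM at 96 h. All these lay above the mutant's 0 h range, with replicate 3 lowest at the last times. The changes were 1.15 ± 0.27, 1.1 ± 0.27, 1.21 ± 0.27 and 1.08 ± 0.27 (edgeR, adjusted p between 0.000539 and 0.00135). EDS5 overlaps AT4G39040 on the opposite strand, and without a stated strand setting reads of the overlap cannot be told apart.

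SARD1 (AT1G73805, chr1:27744790-27749248) and CBP60g (AT5G26920, chr5:9475679-9478777), the transcription factors of ICS1, were already present at 0 h and passed the test at none of the 4 later times in either genotype. SARD1 in WT was at 70.1, 92.5 and 64.3 CPM at 0 h, 80.5, 116 and 137 CPM at 24 h, 71.8, 92.6 and 191 CPM at 48 h, 64.5, 75.4 and 126 CPM at 72 h and 42.6, 57.4 and 96.4 CPM at 96 h. Replicate 3 lay above the other replicates at every later time, and each later range overlapped that of 0 h. Its log2 fold change was 0.48 ± 0.26, 0.50 ± 0.26, 0.12 ± 0.26 and -0.33 ± 0.26 (edgeR, adjusted p = 0.0994, 0.0872, 0.682 and 0.26). CBP60g in WT was at 134, 175 and 159 CPM at 0 h, 155, 192 and 158 CPM at 24 h, 133, 151 and 430 CPM at 48 h, 136, 161 and 331 CPM at 72 h and 114, 141 and 223 CPM at 96 h. Replicates 1 and 2 of CBP60g stayed between 114 and 192 CPM over the whole course, and only replicate 3 went higher. Its log2 fold change was 0.13 ± 0.26, 0.45 ± 0.26, 0.31 ± 0.26 and -0.05 ± 0.26 (edgeR, adjusted p = 0.685, 0.131, 0.294 and 0.884).

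In eur1-11 SARD1 was at 74.7, 89.3 and 62.6 CPM at 0 h, 92.2, 88.7 and 132 CPM at 24 h, 70.8, 67.1 and 146 CPM at 48 h, 64.4, 55.3 and 105 CPM at 72 h and 50.8, 59.7 and 87.0 CPM at 96 h. CBP60g was at 161, 170 and 168 CPM at 0 h, 173, 165 and 202 CPM at 24 h, 154, 139 and 301 CPM at 48 h, 173, 163 and 271 CPM at 72 h and 130, 131 and 195 CPM at 96 h. As in WT, replicate 3 was the high one of both genes and the other replicates stayed near or below their 0 h level. The log2 fold changes lay between -0.29 and 0.39 for SARD1 and between -0.18 and 0.22 for CBP60g (edgeR, adjusted p of at least 0.185). Without replicate 3 SARD1 was lower at 96 h than at 0 h, by -0.70 in WT and -0.58 in eur1-11 (edgeR, adjusted p = 0.000167 and 0.000875), and CBP60g by -0.28 and -0.35 (adjusted p = 0.0296 and 0.0078), in fits that called 72.3% of all genes in WT and 74.3% in eur1-11. Under scaling by total counts both genes were instead higher at all times, SARD1 in WT by 1.59, 1.90, 1.66 and 1.28 and CBP60g by 1.24, 1.84, 1.86 and 1.56 on the log2 scale. SARD1 overlaps AT1G73790 on the opposite strand.

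EDS1 (AT3G48090, chr3:17755329-17758147), the partner of PAD4 in basal immunity, rose for a short time in WT. It was at 46.8, 68.3 and 82.4 CPM at 0 h, 106, 118 and 218 CPM at 24 h, 89.5, 94.6 and 240 CPM at 48 h, 64.3, 72.0 and 107 CPM at 72 h and 61.8, 64.6 and 76.9 CPM at 96 h. The first pair of later times lay above the 0 h range and the last pair overlapped it. On the log2 scale EDS1 was up by 1.12 ± 0.19 at 24 h (edgeR, adjusted p = 2.7e-05), 1.01 ± 0.19 at 48 h, 0.29 ± 0.19 at 72 h and 0.074 ± 0.19 at 96 h, and the last 2 did not pass. In eur1-11 EDS1 started higher, at 73.7, 90.8 and 123 CPM, and was at 104, 94.9 and 180 CPM at 24 h and 77.2, 72.5 and 148 CPM at 48 h. It then stood at 64.2, 56.4 and 89.1 CPM at 72 h and 53.7, 65.0 and 62.1 CPM at 96 h, the last time wholly below the 0 h range. The change was 0.37 ± 0.19 at 24 h and 0.01 ± 0.19 at 48 h (edgeR, adjusted p = 0.0891 and 0.968), and EDS1 was lower by -0.45 ± 0.19 at 72 h and -0.62 ± 0.19 at 96 h (adjusted p = 0.0442 and 0.00721), but higher by 0.94 and 0.87 under scaling by total counts. Both of these calls were lost without replicate 1 (-0.58 and -0.70, edgeR, adjusted p = 0.0994 and 0.0509), and that at 72 h also without replicate 2 (-0.34, adjusted p = 0.259). EDS1 has a near-identical neighbour, AT3G48080, with which reads could have been shared or dropped, so its level is uncertain. AT3G48080 itself went from 5.04, 6.53 and 3.41 CPM at 0 h to 29.8, 31.8 and 33.9 CPM at 24 h in WT, and its log2 fold change was 2.63 ± 0.19 at 24 h and 2.16 ± 0.19 at 96 h.

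PAD4 (AT3G52430, chr3:19431095-19434450) rose moderately at all 4 times in both genotypes. In WT it was at 28.6, 27.4 and 23.9 CPM at 0 h, 38.0, 48.1 and 109 CPM at 24 h, 54.2, 57.4 and 147 CPM at 48 h, 44.5, 48.5 and 92.3 CPM at 72 h and 39.0, 41.5 and 63.1 CPM at 96 h. All later libraries were above 0 h, and replicate 3 was the highest throughout. The log2 fold change was 1.1 ± 0.29, 1.5 ± 0.29, 1.07 ± 0.29 and 0.75 ± 0.29 (edgeR, adjusted p = 0.00198, 0.000108, 0.00243 and 0.025). In eur1-11 it was at 25.5, 27.4 and 19.2 CPM at 0 h, 40.4, 38.7 and 91.8 CPM at 24 h, 50.2, 41.0 and 103 CPM at 48 h, 45.2, 40.2 and 73.6 CPM at 72 h and 37.3, 43.7 and 56.3 CPM at 96 h. The ranges again lay apart from 0 h at each time. The changes were 1.05 ± 0.29, 1.24 ± 0.29, 1.01 ± 0.29 and 0.83 ± 0.28. Without replicate 3 PAD4 was still called, with 0.61 in WT and 0.57 in eur1-11 at 24 h and 0.98 and 0.78 at 48 h. At 96 h PAD4 lost its call without replicate 1 (0.93 in WT and 0.999 in eur1-11, edgeR, adjusted p = 0.0702 and 0.0563) and without replicate 2 (0.83 and 0.94, adjusted p = 0.102 and 0.072).

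**Figure D3:**
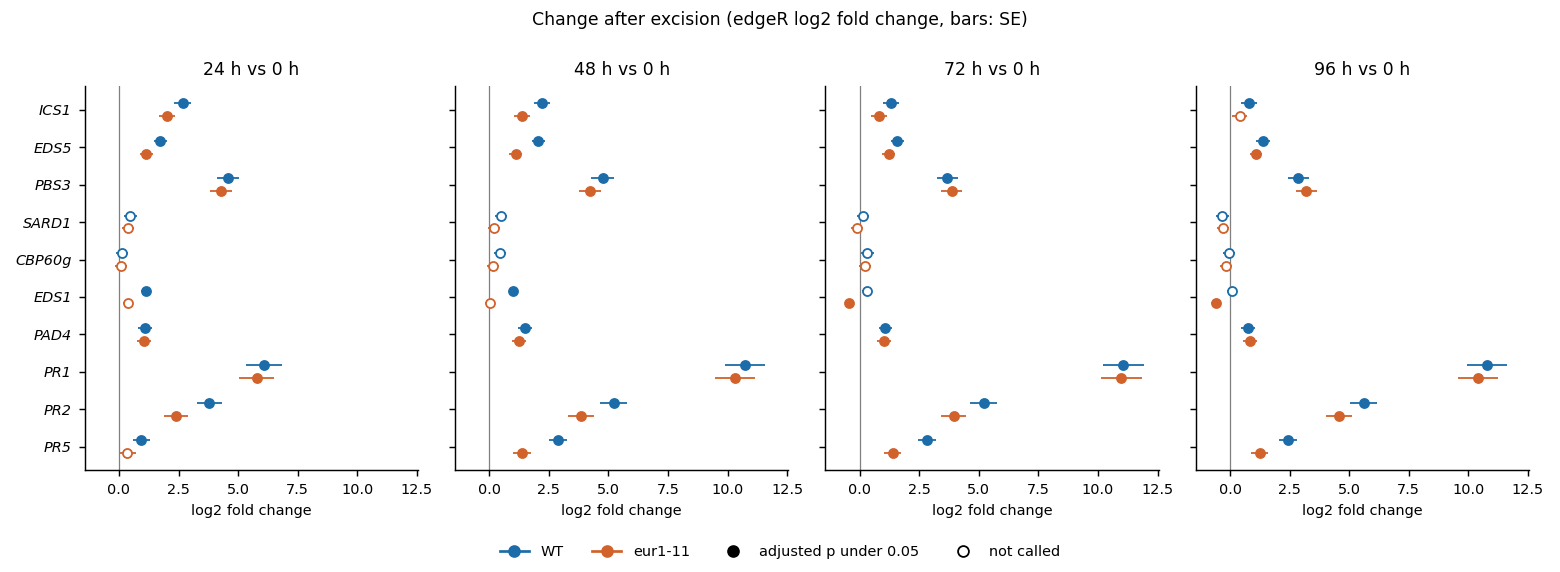
Log2 fold change against 0 h (horizontal axis, edgeR, bars are SE) of the 10 genes at 24, 48, 72 and 96 h in WT and eur1-11. PR1 reached 11.07 in WT, PBS3 and PR2 lay between 2.41 and 5.6, and SARD1 and CBP60g stayed within 0.50 of 0 in both genotypes.

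PR1 (AT2G14610, chr2:6241640-6242541), the classic marker of salicylate signalling, had the largest change of the 10. At 0 h it was at 0.713, 0.612 and 0.852 CPM in WT, which is 14, 9 and 10 reads, and at 0.510, 0.663 and 0.544 CPM in eur1-11, which is 11, 14 and 9 reads. In WT it then reached 58.2, 63.5 and 16.8 CPM at 24 h, 1298, 1088 and 1304 CPM at 48 h, 1066, 1057 and 2885 CPM at 72 h and 1082, 1090 and 1777 CPM at 96 h. The level went on rising from 24 to 48 h in every replicate, and at 24 h replicate 3 was behind the others while at 72 and 96 h it was ahead. The log2 fold change was 6.10 ± 0.75 at 24 h (68.6-fold, edgeR, adjusted p = 3.36e-07), 10.73 ± 0.85, 11.07 ± 0.86 and 10.78 ± 0.85, and folds against so few reads at 0 h are imprecise. In eur1-11 it was at 41.6, 36.2 and 11.4 CPM at 24 h, 392, 469 and 1615 CPM at 48 h, 895, 657 and 2268 CPM at 72 h and 763, 735 and 850 CPM at 96 h. The mutant was below WT in replicates 1 and 2 at every later time and above it in replicate 3 at 48 h. Its changes were 5.78 ± 0.74, 10.33 ± 0.84, 10.98 ± 0.85 and 10.40 ± 0.84.

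PR2 (AT3G57260, chr3:21188397-21189967), the glucanase, was still at its highest at 96 h in replicates 1 and 2. In WT it was at 11.5, 20.4 and 12.8 CPM at 0 h, 120, 128 and 416 CPM at 24 h, 511, 430 and 788 CPM at 48 h, 668, 357 and 652 CPM at 72 h and 803, 823 and 519 CPM at 96 h. Replicate 3 was ahead at 24 and 48 h and lowest at 96 h, and every later library lay well above 0 h. Relative to 0 h PR2 had log2 fold changes of 3.79 ± 0.53 (13.9-fold, edgeR, adjusted p = 2.08e-06), 5.22 ± 0.57, 5.2 ± 0.57 and 5.6 ± 0.57, and without replicate 3 PR2 stood at 2.97 at 24 h. In eur1-11 it was at 25.0, 29.2 and 10.03 CPM at 0 h, 108, 82.2 and 175 CPM at 24 h, 211, 278 and 501 CPM at 48 h, 382, 241 and 416 CPM at 72 h and 606, 643 and 291 CPM at 96 h. Replicate 3 of the mutant was highest from 24 to 72 h and lowest at 0 and 96 h. The changes were 2.41 ± 0.50, 3.85 ± 0.53, 3.94 ± 0.53 and 4.57 ± 0.54.

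PR5 (AT1G75040, chr1:28177670-28179022), the thaumatin-like protein, rose least of the PR genes. In WT it was at 13.0, 8.23 and 15.4 CPM at 0 h, 18.5, 20.4 and 32.8 CPM at 24 h, 80.9, 72.3 and 115 CPM at 48 h, 58.0, 48.3 and 181 CPM at 72 h and 54.8, 51.8 and 98.9 CPM at 96 h. The 24 h libraries were just above the 0 h range and those from 48 h on were far above it. For PR5 this gave log2 fold changes of 0.94 ± 0.37 at 24 h (edgeR, adjusted p = 0.0281), 2.87 ± 0.38, 2.81 ± 0.38 and 2.44 ± 0.38. In eur1-11 it was at 18.1, 21.3 and 26.5 CPM at 0 h, 30.7, 26.5 and 21.8 CPM at 24 h, 38.5, 42.9 and 102 CPM at 48 h, 51.2, 27.3 and 109 CPM at 72 h and 41.8, 63.0 and 40.7 CPM at 96 h. The mutant's 0 h level was above that of WT in all replicates, and its 24 h range overlapped its own 0 h range. The change was 0.34 ± 0.36 at 24 h (edgeR, adjusted p = 0.414) and 1.37 ± 0.36, 1.37 ± 0.36 and 1.23 ± 0.36 at the later times (adjusted p = 0.00222, 0.00218 and 0.00464). Without replicate 1 the WT call of PR5 at 24 h was lost (1.197, edgeR, adjusted p = 0.0808), as were those of eur1-11 at 72 and 96 h (1.31 and 1.24, adjusted p = 0.0566 and 0.0661). Without replicate 2 the calls in WT at 24 h and eur1-11 at 96 h were lost (0.78 and 0.95, adjusted p = 0.136 and 0.0698).

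The early and late parts of the course were set against each other within each genotype. In replicates 1 and 2 ICS1 and PBS3 were highest earlier than the PR genes, which did not hold for EDS5 or throughout replicate 3. From 24 to 96 h in WT, PR1, PR2 and PR5 had log2 fold changes of 4.68 ± 0.62, 1.8 ± 0.49 and 1.5 ± 0.36 (edgeR, adjusted p = 1.03e-05, 0.00651 and 0.00267). Over the same interval ICS1 changed by -1.90 ± 0.33, PBS3 by -1.71 ± 0.41, EDS1 by -1.05 ± 0.19 and SARD1 by -0.81 ± 0.26 (edgeR, adjusted p = 0.00017, 0.00281, 0.000304 and 0.0167). Thus 3 of the 10 genes were higher and 4 lower, where 17.6% of genes tested were higher and 18.9% lower. EDS5 (-0.36 ± 0.27), PAD4 (-0.35 ± 0.28) and CBP60g (-0.17 ± 0.26) passed in neither direction. In eur1-11 PR1 and PR2 rose by 4.62 ± 0.62 and 2.16 ± 0.49 (edgeR, adjusted p = 1.22e-05 and 0.0019), while ICS1 (-1.62 ± 0.33), PBS3 (-1.08 ± 0.40), EDS1 (-0.99 ± 0.19) and SARD1 (-0.68 ± 0.25) were lower (adjusted p = 0.000729, 0.0407, 0.000532 and 0.0411). These are 2 higher and 4 lower against 17.1% and 18.9% of genes. PR5 had 0.89 ± 0.35 in the mutant (edgeR, adjusted p = 0.0537).

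Without replicate 1 only ICS1, EDS1 and PR1 passed in WT between 24 and 96 h (-1.72, -1.18 and 5.02), and without replicate 2 these and PR5. In eur1-11 EDS1 and PR1 passed without replicate 1, and ICS1 joined them without replicate 2. Without replicate 3 SARD1, ICS1, PBS3 and EDS1 had -0.97, -2.06, -1.85 and -0.82 in WT, all of them called in a fit that called 54.4% of all genes. Scaling by total counts, under which 90.5 to 91.7% of calls were higher in place of 47.5 to 48.2%, kept the direction of these genes but SARD1 no longer passed in either genotype (-0.31 and -0.23, edgeR, adjusted p = 0.318 and 0.474), nor PBS3 in eur1-11 (-0.63, adjusted p = 0.188). The times of the highest level differed between replicates. ICS1 and PBS3 in WT were highest at 24, 24 and 48 h in replicates 1, 2 and 3, PR5 at 48, 48 and 72 h, PR1 at 48, 96 and 72 h and PR2 at 96, 96 and 48 h, so in replicate 3 ICS1, PBS3 and PR2 were all highest at 48 h. In eur1-11 ICS1 was highest at 24 h in each replicate, PBS3 at 24, 24 and 48 h, PR1 and PR5 at 72, 96 and 72 h, PR2 at 96, 96 and 48 h and EDS5 at 72, 96 and 24 h. At 96 h ICS1 in WT was at 21.6, 26.0 and 22.1% of its highest level and PBS3 at 28.7, 26.8 and 14.0%, while PR1 was at 83.3, 100 and 61.6% and PR2 at 100, 100 and 65.9%.

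**Figure D4:**
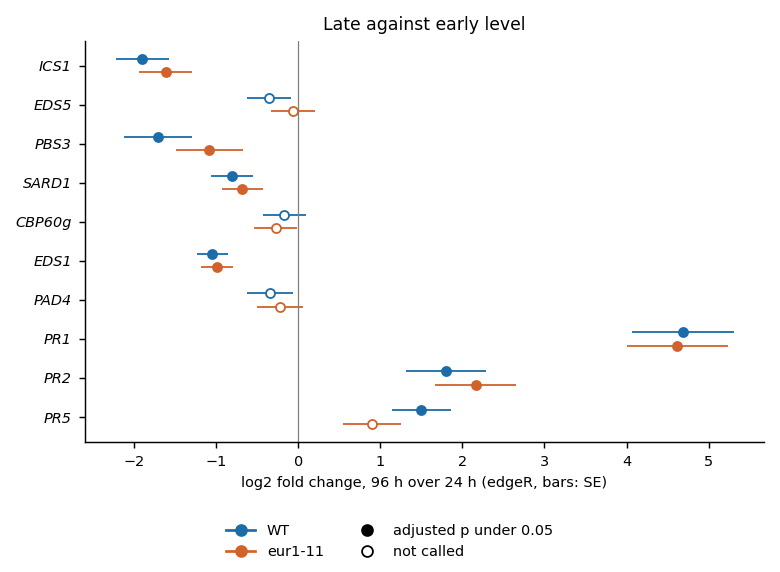
Log2 fold change from 24 to 96 h (horizontal axis, edgeR, bars are SE) of the 10 genes in WT and eur1-11. The PR genes lie to the right, up to 4.68 for PR1 in WT, and ICS1, PBS3, EDS1 and SARD1 to the left, down to -1.90 for ICS1 in WT.

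From 24 to 48 h PR1 rose further, and PR5 did so in WT. PR1 rose by 4.63 ± 0.62 and PR5 by 1.92 ± 0.36 in WT (edgeR, adjusted p = 0.000136 and 0.00296), which makes 2 of the 10 genes against 3.89% of genes higher, and PR1 rose by 4.55 ± 0.62 in eur1-11 (adjusted p = 0.000175), 1 of the 10 against 4.23%. PR2 went up by 1.43 ± 0.48 and 1.44 ± 0.48 with ranges apart in both genotypes, but missed the threshold (edgeR, adjusted p = 0.0722 and 0.0612). DESeq2 called PR1, PR2 and PR5 in both genotypes. Without replicate 1 or 2 none of the 10 genes was called in this step, and without replicate 3 7 were called in WT and 6 in eur1-11, among them ICS1 with -1.19 and -0.94, in a fit that called 42.2 and 43.7% of all genes. Between 48 and 72 h edgeR called none of the 10 in either genotype, against 1.05% of genes in WT and 1.31% in eur1-11, although 3 in WT and 1 in eur1-11 had an unadjusted p under 0.05 and DESeq2 called EDS1 in WT. Between 72 and 96 h none was called by edgeR or DESeq2 and none had an unadjusted p under 0.05, against 0.0419 and 0.0373% of genes called by edgeR. Without replicate 3 the counts of these last steps were 3 and 2 in WT, against 11.7 and 4.84% of all genes, and 1 and 3 in eur1-11, against 23.5 and 9.42%.

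Per length of exon the order of the genes turned over with time. At 0 h in WT PR1 was the lowest of the 10, at 0.805 ± 0.134 CPM per kb (SD, n = 3), below PBS3 at 3.60 ± 0.69 and ICS1 at 7.96 ± 0.599, and CBP60g was the highest at 67.6 ± 8.89. SARD1 at 31.6 ± 6.22 and EDS1 at 25.8 ± 7.03 came next, within each other's spread. PAD4 at 11.8 ± 1.08, PR5 at 11.2 ± 3.34, PR2 at 10.1 ± 3.27, EDS5 at 8.24 ± 1.54 and ICS1 lay below them, and each was within the spread of its neighbour in this order, although PAD4 stood apart from EDS5 and ICS1. At 96 h PR1 was the highest, at 1459 ± 442 CPM per kb, followed by PR2 at 484 ± 115. Both were by then above CBP60g, the gene that led at 0 h.

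Across the 10 group means of log2(CPM + 0.5) the genes fell into patterns that are given as a description, since all share the same libraries and the 0 h groups weigh heavily. PR1 followed PR2 (Pearson r = 0.976) and PR5 (0.932), and PBS3 followed PAD4 (0.963) and EDS5 (0.957). SARD1 followed EDS1 (0.924) and ICS1 (0.841), while PR1 had -0.063 with SARD1 and -0.13 with EDS1. There were 15449 genes with at least 5 CPM in a group, the 10 members included. Outside the members, those most like each were MKK2 for ICS1 (0.994), GAD4 for EDS5 (0.993), AIG1 for PBS3 (0.996), AT2G44290 for SARD1 (0.979), SERK1 for CBP60g (0.903), RHM1 for EDS1 (0.984), AT3G02770 for PAD4 (0.988), CAN for PR1 (0.997), AT3G10190 for PR2 (0.994) and AGL31 for PR5 (0.980). MPK4 came second for ICS1 (0.993) and LYM2 for EDS1 (0.982).

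Between the genotypes none of the 10 genes passed the test in edgeR, at any time, over the mean of the 5 times or in the interaction with time, and DESeq2 also called none. Of all genes tested 2.08% were called at 0 h, 0.331% at 24 h, 0.34% at 48 h, 0.48% at 72 h, 0.517% at 96 h and 5.71% over the mean of the times. Unadjusted p-values under 0.05 were found for EDS1, PR5 and EDS5 at 0 h, for EDS1 at 48 h and for PR2 over the mean, and for none at 24, 72 or 96 h. At 0 h eur1-11 was higher in EDS1 by 0.54 ± 0.19, in EDS5 by a log2 difference of 0.59 ± 0.28 and in PR5 by 0.86 ± 0.37 (edgeR, adjusted p = 0.148, 0.285 and 0.243). The levels of ICS1, EDS5 and PR5 at 0 h did not overlap between the genotypes, and 8.88% of genes lay wholly above WT there. At 48 h all 10 differences were negative, from -0.81 ± 0.47 for PR2 to -0.20 ± 0.26 for CBP60g, with adjusted p in edgeR of at least 0.617. The median over all genes was -0.0054, and the share of all genes with a negative difference was not counted. These 10 genes share the same libraries, so their signs are not separate observations and are no test. At 96 h the PR1 levels of eur1-11 lay wholly below those of WT, which was so for 8.86% of genes, with a difference of -0.71 ± 0.53 (edgeR, adjusted p = 0.886). Over the mean of the times the differences were -0.56 ± 0.29 for PR1 (edgeR, adjusted p = 0.297), -0.45 ± 0.21 for PR2 (0.252), -0.21 ± 0.14 for ICS1 (0.471), -0.18 ± 0.13 for PAD4 (0.469) and 0.15 ± 0.12 for EDS5 (0.552). The other 5 genes had differences between -0.11 and -0.012.

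This comparison depended on replicate 3. Without it, eur1-11 was lower than WT over the mean of the times in PR1 by -0.66 (edgeR, adjusted p = 0.000244), in PR2 by -0.33 (0.047) and in ICS1 by -0.20 (0.0107), and higher in EDS5 by 0.33 (0.000477), where 4695 genes in all were called in place of 1226. Without replicate 1 or 2 none of the 10 genes was called, with 150 and 109 genes called in all. With the replicate block set within each time, which pairs the samples of 1 number at 1 time, PR1 (-0.60), PR2 (-0.45) and PAD4 (-0.19) passed (edgeR, adjusted p = 0.025, 0.00494 and 0.0103). In that blocked fit EDS1 passed at 0 h with 0.55 and at 48 h with -0.43, and PR2 at 48 h with -0.85 (edgeR, adjusted p = 0.0033, 0.03 and 0.0463). PR1 and PR2 were lower in eur1-11 over the mean under all of these settings, and EDS5 was higher.

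**Figure D5:**
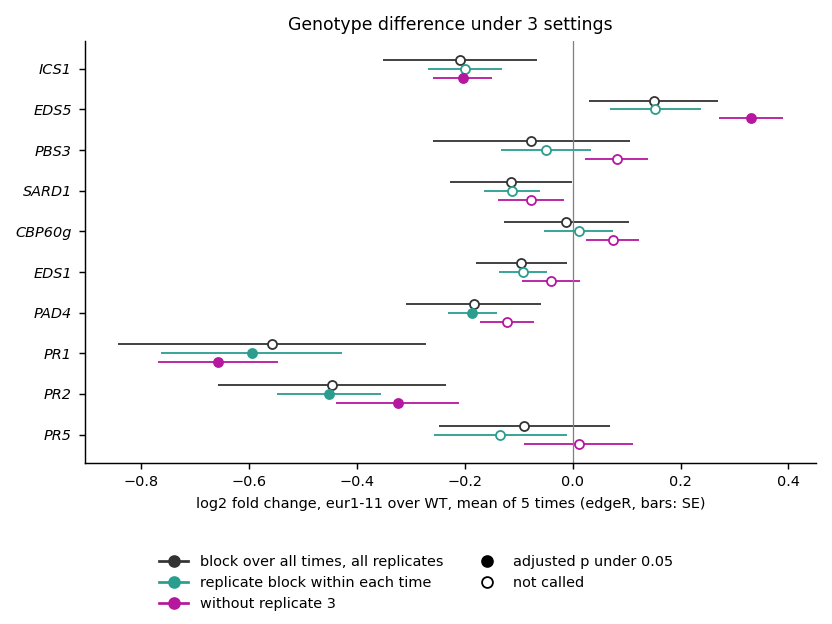
Log2 difference of eur1-11 from WT over the mean of 5 times (horizontal axis, edgeR, bars are SE) for the 10 genes under 3 settings: as reported, without replicate 3, and with the replicate block within each time. PR1 (-0.56, -0.66 and -0.60) and PR2 (-0.45, -0.33 and -0.45) lie left of 0 in each, and EDS5 (0.15 as reported) lies right.

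The interaction asks whether the change from 0 h differed between the genotypes. EDS1 had -0.75 ± 0.27, -1.0 ± 0.27, -0.74 ± 0.27 and -0.69 ± 0.27 at 24, 48, 72 and 96 h (edgeR, adjusted p = 0.383, 0.183, 0.347 and 0.386), and PR5 -1.50 ± 0.51 and -1.44 ± 0.51 at 48 and 72 h (adjusted p = 0.334 and 0.327). PR2 had -1.38 ± 0.68 at both 24 and 48 h. Unadjusted p-values under 0.05 were found for 1, 3, 2 and 2 of the 10 genes at the 4 times, and of all genes 0, 0, 0.014 and 0.0792% were called. Without replicate 3 the calls were EDS1 (-0.70) and ICS1 (-1.01) at 24 h, EDS1, ICS1, PR2 and PR5 (-0.83, -0.76, -1.73 and -1.79) at 48 h, EDS1, PR2 and PR5 at 72 h and EDS1 (-0.62) at 96 h, in fits that called 3.66, 3.26, 5.84 and 7.67% of all genes. No interaction of the 10 genes passed without replicate 1 or without replicate 2.

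Other genes of the pathway were described from lists, by their counts at 24 and 96 h against 0 h. Over all genes tested 35.9 and 38.1% were higher and 32.1 and 30.8% lower at these times in WT. In eur1-11 34.6 and 36.4% were higher and 31.7 and 31.6% lower. List counts near these shares are no result about a list. Of 6 further synthesis genes, 3 were higher and 2 lower at 24 h in WT and 4 and 2 at 96 h, with a median log2 fold change of 1.14 and 1.69. The phenylalanine ammonia-lyases PAL1 and PAL4, which open the other route to salicylic acid, rose by 2.995 ± 0.45 and 1.7 ± 0.39 at 24 h and 3.29 ± 0.45 and 3.23 ± 0.40 at 96 h. At 24 h PAL1 was at 856, 836 and 217 CPM in WT, so replicate 3 rose less. PAL2 went from 179, 195 and 280 CPM at 0 h to 498, 502 and 569 CPM at 96 h in WT. PAL3 of the same family went down in WT, from 47.9, 44.3 and 47.5 CPM at 0 h to 25.8, 25.9 and 25.6 CPM at 24 h. At 96 h PAL3 was at 17.7, 17.5 and 14.5 CPM. ICS2, the second isochorismate synthase, went the opposite way to ICS1, from 8.75, 9.12 and 8.27 CPM at 0 h to 0.532, 0.529 and 3.74 CPM at 24 h and 0.283, 0.498 and 1.07 CPM at 96 h in WT (-2.78 ± 0.58 and -3.96 ± 0.62). In eur1-11 the list had 3 higher and 1 lower at 24 h and 3 and 2 at 96 h.

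Most genes that turn salicylic acid over were above their 0 h level: of 8 listed, 7 were tested, and 6 were higher at 24 h and 7 at 96 h in both genotypes, with none lower. In WT 35.9 and 38.1% of all genes were higher at these times, and in eur1-11 34.6 and 36.4%. Between 24 and 96 h 3 of the listed genes rose and 1 fell in each genotype. Over all genes 17.6% rose and 18.9% fell in that interval in WT, and 17.1 and 18.9% in eur1-11. The gene DLO1 (AT4G10500), a salicylic acid hydroxylase, went from 0.153, 0.408 and 0.682 CPM at 0 h in WT to 11.9, 11.3 and 9.30 CPM at 24 h and 43.3, 43.7 and 66.7 CPM at 96 h, with log2 fold changes of 4.89 ± 0.54 and 7.05 ± 0.53. The glucosyltransferase UGT76B1 had 0, 1 and 0 reads at 0 h in WT and 81.5, 96.6 and 22.6 CPM at 24 h, and 8.51, 10.1 and 18.4 CPM at 96 h. BSMT1, which methylates salicylic acid, had 0 reads at 0 h in WT and 0.848, 5.002 and 0.0671 CPM at 96 h, so its libraries differed widely. The median of the 5 genes with more than 3 reads at 0 h was 2.60 at both times in WT. DLO2 did not pass the filter on low counts.

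Of 13 receptor and TGA genes, 5 were higher and 3 lower at 24 h in WT and 6 and 4 at 96 h, and 7 and 4 and 6 and 4 in eur1-11, with a median in WT of 0.24 and 0.20. Over all genes in WT 35.9 and 38.1% were higher and 32.1 and 30.8% lower at these times. NIMIN1 and NIMIN2, which bind NPR1 and dampen PR1 activation, rose by 4.08 ± 0.42 and 4.17 ± 0.39 at 24 h and were down to 1.498 ± 0.45 and 2.25 ± 0.38 at 96 h. NPR3, a repressing receptor, was lower by -1.58 ± 0.21 and -2.08 ± 0.21. Of 7 further immunity genes listed beside EDS1, 3 were higher and 2 lower at 24 h in WT and 2 and 3 at 96 h, and in eur1-11 3 and 2 and then 2 and 2. NDR1, needed by many coiled-coil resistance proteins, was at -2.15 ± 0.17 and -2.99 ± 0.18, AT5G66900 at -1.81 ± 0.096 and -1.803 ± 0.095, and ADR1, a helper receptor, at 0.73 ± 0.085 and 0.83 ± 0.085.

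Of 18 other regulators of ICS1, 6 were higher and 8 lower at 24 h in WT and 5 and 9 at 96 h, and in eur1-11 3 and 8 and then 4 and 9, with a median in WT of -0.066 and -0.25. Beside these stand 35.9 and 38.1% of all genes higher and 32.1 and 30.8% lower in WT. TCP21 (AT5G08330), which binds the ICS1 promoter, and NAC072, a repressor of ICS1, were lower by -3.12 ± 0.28 and -2.70 ± 0.27 at 24 h. WRKY28, an activator of ICS1, was at 0.0509, 0.340 and 0.767 CPM at 0 h in WT and at 7.33, 8.80 and 3.71 CPM at 24 h. In eur1-11 WRKY28 already stood at 1.16, 2.08 and 11.2 CPM at 0 h and was at 8.35, 8.52 and 7.26 CPM at 24 h, and the difference at 0 h was 3.79 ± 0.78 (edgeR, adjusted p = 0.0134). Over the mean of the 5 times, 5 genes of the pathway lists passed between genotypes and are named for that reason. Of all genes tested 5.71% passed there. WRKY28 (0.91 ± 0.25), NAC055 (0.86 ± 0.21) and AT5G64220 (0.14 ± 0.037) were higher in eur1-11, and AT5G66910 (-0.20 ± 0.058) and AT3G48080, the copy of EDS1 (-0.44 ± 0.079, edgeR, adjusted p = 0.00141), were lower. Taken singly, none of the 18 regulators passed between genotypes at 24, 48, 72 or 96 h. The mean of WRKY28 thus includes a difference called only at 0 h, against WT levels of at most 0.767 CPM and with replicate 3 of eur1-11 far above the others. Of the markers of cell types 1 passed, SUC2 of the phloem, which was lower in eur1-11 (-0.21 ± 0.059, edgeR, adjusted p = 0.0333).

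The relatives of the PR genes bear on how sure the PR levels are. PRB1, the closest relative of PR1 beside it on the genome, had at most 0.0712 CPM in any library, BG1 beside PR2 at most 0.615 and TLP-3 beside PR5 at most 4.41. How many reads were shared between such copies was not tested. BG3, next to PR2, went from 2.29, 2.31 and 1.28 CPM at 0 h to 45.3, 49.2 and 25.0 CPM at 24 h in WT and was back at 2.89, 2.94 and 4.14 CPM at 96 h, when PR2 was at 519 to 823 CPM against 120 to 416 CPM at 24 h. PR3 and PR4, usually tied to jasmonate and ethylene, rose along with PR1, by 6.19 ± 0.38 and 3.69 ± 0.28 at 24 h and 8.56 ± 0.39 and 4.96 ± 0.29 at 96 h in WT. The list of 9 relatives also held AT3G48080, the copy of EDS1, and 6 of the 9 were tested. Of these 4 were higher and 1 lower at both times in WT, and 4 and 1 and then 3 and 1 in eur1-11. Over all genes in WT 35.9 and 38.1% were higher and 32.1 and 30.8% lower.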

How the data were processed

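RNA was sequenced on an Illumina instrument, and the authors ran FastQC, aligned reads to TAIR10 with STAR and counted them per gene with HTSeq. They deposited raw counts in 1 table without normalization. The sources used here give no tool versions, annotation release or strand setting. Unassigned reads (3.58 to 6.76%) and ambiguous reads (2.43 to 3.45%) were left out. Names, positions and sequences are from RefSeq TAIR10.1, which held 32835 of 33602 identifiers (97.7%).

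Counts were tested with edgeR 4.0.16 in R 4.3.3 (quasi-likelihood F test, TMM, filterByExpr by group) over 30 libraries with 1 term per group and, following the study's methods, the replicate number as a block. P-values were adjusted by Benjamini-Hochberg over 21472 genes and called under 0.05, and errors of log2 fold changes are SE. Common dispersion was 0.0358. The script was tested on simulated data. Over 17085 genes, deviations of samples with the same number at the same time correlated by more than 0.1 in 15 of 15 pairs (mean r = 0.531). Replicates 1 and 2 of different genotypes also correlated across numbers, with r of 0.173 to 0.609, against 0.262 to 0.711 for their same-numbered pairs. Replicate 3 had r of 0.454 to 0.780 with replicate 3 of the other genotype, and negative r with its replicates 1 and 2 at each time. Deviations were taken from the mean of the 3 samples of a group and cancel within it. The negative r thus follows largely from the positive r of replicate 3 and is no separate result. The check could not tell whether replicates 1 and 2 were paired by number. Chi-square per degree of freedom between replicates 1 and 2 was at least 5.27, so they differed by more than sampling noise.

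Alternatives were total-count and upper-quartile scaling, DESeq2 1.42.0, no low-count filter, no block, a block within each time, and leaving out each replicate. The members and lists were chosen with earlier results of these data known. The text names the 10 members, at most 3 called genes of each list with the largest changes in WT, paralogs, the other PAL genes, and genes most like a member.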

Additional observations from a re-analysis of the deposited data

How the results depend on the processing

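By the counts of the 10 genes called, comparisons with 0 h moved least in proportion. In WT these counts kept within 1.5 times under each alternative. In eur1-11 scaling by total counts gave 10 in place of 6 at 24 h. There, leaving out 1 replicate gave 5 to 9 in place of 8 at 72 h and 4 to 9 in place of 7 at 96 h. The sizes of the changes from 0 h did depend on scaling. With total counts the median gene lay 1.08 to 1.76 above 0 h on the log2 scale, against 0.066 to 0.16 with TMM. SARD1 and CBP60g, called at no time as reported, were then higher at every later time in both genotypes. Leaving out 1 replicate gave 3 to 8 in place of 7 genes for 96 against 24 h in WT and 2 to 8 in place of 6 in eur1-11, and 0 to 7 in place of 2 and 0 to 6 in place of 1 for 48 against 24 h, where eur1-11 also had 3 under total-count scaling and 3 under DESeq2. For the later steps in WT it gave 0 to 3 and 0 to 2, with 1 under DESeq2 for 72 against 48 h, and in eur1-11 0 to 1 and 0 to 3, all in place of 0.

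Between genotypes, where 0 were called, leaving out 1 replicate gave 0 to 3 at 0 h, 0 to 3 at 24 h, 0 to 4 at 48 h, 0 to 3 at 72 h, 0 to 3 at 96 h and 0 to 4 over the mean of 5 times, and 0 to 2, 0 to 4, 0 to 3 and 0 to 1 in the interactions. Total-count scaling gave 1 at 0 h, and the replicate block within each time gave 1 at 0 h, 2 at 48 h and 3 over the mean. Dropping the replicate block took 10 of 84 single-gene results below the threshold, among them ICS1 in WT at 96 h (0.86) and EDS1 in eur1-11 at 96 h (-0.67), and turned none.

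Among the called changes with time, the direction turned for EDS1 in eur1-11 at 72 and 96 h under total-count scaling (0.94 and 0.87). Changes that were not called could turn too. At 96 h SARD1 and CBP60g were at -0.33 and -0.05 in WT and -0.29 and -0.18 in eur1-11 as reported. Under total-count scaling all of these were higher than at 0 h. Over the mean of times the direction turned for differences near 0: CBP60g (0.039 under total-count scaling, 0.011 with the replicate block within each time, and -0.13 to 0.074 when 1 replicate was left out), PBS3 (-0.20 to 0.082 when 1 was left out) and PR5 (-0.22 to 0.011). Between genotypes, calls over all genes at 1 time were 71 to 447 as reported, 1164 to 2792 without replicate 3, 6 to 11 without replicate 1 or 2, 386 to 2266 with the block within each time and 167 to 741 by DESeq2. Over the mean of times they were 1226 as reported, 3427 with that block, 1918 by DESeq2 and 816 without any block, and interactions had 0 to 17 as reported, 702 to 1653 without replicate 3 and 100 to 147 by DESeq2. Steps between neighbouring times had 8 to 1925 as reported and 1042 to 9413 without replicate 3, and 96 against 24 h had 7723 to 7837 as reported, 1971 to 2330 without replicate 1 or 2 and 11562 to 12248 under total-count scaling. The cause of these shifts was not tested. Counts of 9 to 14 reads limit the precision of PR1 at 0 h.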
